A study of Homo sapiens with 12 samples.

Results

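The sh-B and sh-C libraries are 6 of the 12 RNA sequencing libraries of the series, 3 for each hairpin, and were taken by the group given in the sample titles. Both are H1975 cells, an epithelial line from a human non-small cell lung cancer that carries a mutant epidermal growth factor receptor (EGFR), in which 0.5 µg/ml doxycycline for 2 days switched on a short hairpin RNA against KAT5, also called TIP60. The design text names sh-B as shTIP60-1 and sh-C as shTIP60-2. The 3 control libraries carried a control hairpin and had the same doxycycline, and they are used below only to show which hairpin moved. The other 3 libraries, of a hairpin called sh-A, entered the statistical model and are not described. The labels do not say whether the cells of a hairpin were a pool or a clone, or whether its 3 libraries came from different cultures, so p-values here measure the spread between libraries, which may be technical.

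KAT5 is the catalytic subunit of the NuA4/TIP60 complex, which acetylates histones H4 and H2A and non-histone proteins such as the kinase ATM and p53, and which also exchanges the histone variant H2A.Z into nucleosomes. MYC recruits the complex to promoters, and the complex acts as a coactivator for several other transcription factors. Hairpins against the same transcript share the intended target and differ in sequence, so the transcripts on which they part are the subject of the comparison of sh-B with sh-C.

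In sh-B 3 the expected counts summed to 21896342, in sh-B 4 to 24780051 and in sh-B 5 to 22381129, and in sh-C 1, 2 and 3 to 20968576, 28073366 and 23156546. The libraries expressed epithelial genes, with EPCAM at 314 to 423 FPKM in sh-B and 349 to 409 in sh-C. The lung gene NKX2-1 was at 13.1 to 20 FPKM in sh-B, 21.6 to 22.9 in sh-C and 30.8 to 35.6 in the control. SFTPB was low, at 0.71 to 1.14 FPKM in sh-B, 0.47 to 0.76 in sh-C and 1.32 to 1.68 in the control. NAPSA was at 0.06 to 0.21, 0.32 to 0.74 and 0.58 to 0.76 in the same order. Of the 10 fibroblast markers 1, COL1A1, reached 1 FPKM in each hairpin, and the summed fibroblast level was 2.4 to 2.69 FPKM in sh-B, 2.41 to 2.71 in sh-C and 3.8 to 4.56 in the control. The summed endothelial level, nearly all ENG, was 41.4 to 46.7 FPKM in sh-B and 42.3 to 51.3 in sh-C, with CDH5 at 0 in sh-B and TEK at 0 in both hairpins. The summed leukocyte level, mostly the lysosomal protein CD68, was 45.7 to 51.4 FPKM in sh-B, 67.7 to 81.9 in sh-C and 102 to 111 in the control, with ITGAM at 0 in all 3 groups. One library of each hairpin stood somewhat apart: the median absolute log2 difference over 13932 genes was 0.202 and 0.211 between sh-B 3 and the other sh-B libraries against 0.076 between those, and 0.173 and 0.15 between sh-C 1 and the other sh-C libraries against 0.101 between those.

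Levels below are counts-per-million values (CPM) after scaling, listed in the order sh-B 3, 4 and 5, sh-C 1, 2 and 3 and control 1, 2 and 3. A log2 difference is sh-B minus sh-C, so that a positive value is higher in sh-B, and it is followed by its standard error (SE) and by the adjusted p of the quasi-likelihood test of edgeR over all genes tested. A gene was called different at an adjusted p below 0.05.

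The transcriptomes of the 2 hairpins differed widely. Of 15592 genes tested 4344 were called, which is 27.9%, with 2024 higher in sh-B (13%) and 2320 lower (14.9%), and 6089 genes had an unadjusted p below 0.05. Most differences were modest, with a median absolute log2 difference of 0.56 among the called genes, while 812 genes differed at least 2-fold, 264 of them higher in sh-B and 548 lower. At 8-fold or more there were 7 genes higher in sh-B and 89 lower. The 3 libraries of one hairpin did not overlap the 3 of the other in 4217 of the 4344 called genes, beside 42.7% of all genes tested. Leaving out sh-B 3 and sh-C 1, the libraries that stood apart, gave 4287 called genes. Of these, 3535 were also called in the same direction with all libraries, which is 82.5% of the 4287 and 81.4% of the 4344.

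The control libraries show which hairpin had moved. A hairpin is counted as outside the control where its 3 libraries all lay above or all below the 3 control libraries, which was so for 48.7% of all genes tested with sh-B and for 45.4% with sh-C. Among the called genes sh-B alone lay outside in 786 genes above and 835 below, and sh-C alone in 500 above and 514 below. The hairpins lay on opposite sides of the control in 373 called genes with sh-B above and in 409 with sh-B below. Both lay on the same side in 316 genes above and 426 below, and neither was outside in 185. Called genes are picked for a difference between the hairpins, which favours opposite sides. Over all 15592 genes tested, called or not, both hairpins lay on the same side in 1816 genes above and 1664 below. They lay on opposite sides in 387 with sh-B above and 424 with sh-B below, and neither was outside in 5201. Of the 548 genes at least 2-fold lower in sh-B, sh-B alone lay below the control in 226, both hairpins lay below in 174, they lay on opposite sides in 82, and sh-C alone lay above in 46.

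**Figure D1:**
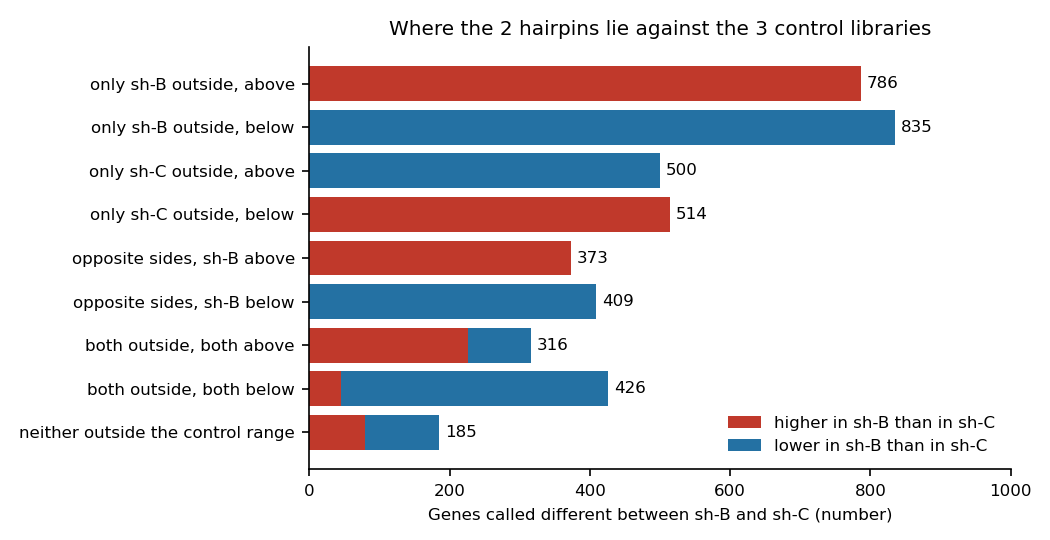
Bars give the number of called genes in each position of sh-B and sh-C against the 3 control libraries, coloured by the direction of the difference between the hairpins. The 2 longest bars are the classes in which sh-B alone left the control range, with 786 genes above and 835 below.

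KAT5 itself (gene ID 10524) was lower with both hairpins than in the control, and lowest with sh-C. It stood at 14.7, 13.4 and 12.7 CPM with sh-B, at 8.24, 7.30 and 8.21 with sh-C and at 31.8, 27.6 and 27.4 in the control. No library of one group overlapped another. KAT5 was 1.72-fold higher in sh-B than in sh-C (log2 difference 0.78, SE 0.1, adjusted p = 0.00014). The block median around KAT5, the median log2 difference of neighbouring genes as described below, was 0.24, also higher in sh-B. In the order of KAT5 the sh-B libraries lie between control and sh-C. That order was found without overlap of libraries in 42 called genes that stepped down from control through sh-B to sh-C and in 79 that stepped up. The reverse order, with sh-B farther than sh-C from the control on the same side, was found in 379 called genes below the control and 224 above. Over all genes tested, called or not, the counts in the same sequence were 125, 182, 626 and 450. These counts are descriptions, and the orders were not tested against the control. Whether transcripts follow the level of KAT5 was not tested, and these libraries hold no protein levels.

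Few of the other subunits of the NuA4/TIP60 complex differed in the direction of KAT5. Of 20 subunit genes tested 2 were higher in sh-B, KAT5 and the reader subunit MBTD1, 6 were lower and 12 were not called, with a median log2 difference of -0.12. VPS72, the subunit that binds H2A.Z, was at 39.1, 35.1 and 41.5 CPM with sh-B and at 69.1, 68.8 and 67.8 with sh-C, on either side of the control at 57.9, 56.4 and 56.4 (log2 difference -0.83, SE 0.08, adjusted p = 2.5e-05). MRGBP, an adaptor subunit, was at 51.7, 44.2 and 44.5 with sh-B, 64.3, 63.9 and 58.8 with sh-C and 55.3, 57.8 and 54.2 in the control (log2 difference -0.41, SE 0.08, adjusted p = 0.0026). Both genes lay in chromosome stretches that were lower as a whole in sh-B, described below, as did ING3 and TRRAP, whereas ACTL6A lay in one that was higher. Outside all shifted stretches 2 of 15 subunits were higher and 3 lower. Among 16 other histone acetyltransferases and bromodomain readers, KAT2B (PCAF) was higher in sh-B (log2 difference 0.95, SE 0.13, adjusted p = 0.00022; block median 0.25, the median over about 60 neighbouring genes as described below) and none was lower. NCOA2, a steroid receptor coactivator, was called higher as well, but its libraries overlapped and its call was lost in several leave-one-out fits.

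MYC, the transcription factor that works with the TIP60 complex, lay above the control with both hairpins and higher with sh-C. Its level was 914, 526 and 579 CPM with sh-B, 1220.0, 1276 and 1243 with sh-C and 357, 374 and 343 in the control. The sh-B libraries were uneven, with sh-B 3 well above sh-B 4 and 5, yet all 3 lay below every sh-C library and above every control library (log2 difference -0.89, SE 0.24, adjusted p = 0.015). Leaving out sh-B 4 gave MYC a log2 difference of -0.74 with an adjusted p of 0.069, and leaving out sh-B 5 gave -0.80 with 0.061. Of 12 genes of the MYC and MAX network the other 2 called were higher in sh-B: MXI1, an antagonist of MYC that pairs with MAX (log2 difference 0.83, SE 0.1, adjusted p = 9e-05; block median 0.33), and MAX itself by a small step (log2 difference 0.20, SE 0.07, adjusted p = 0.042) that lost its call in most leave-one-out fits.

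**Figure D2:**
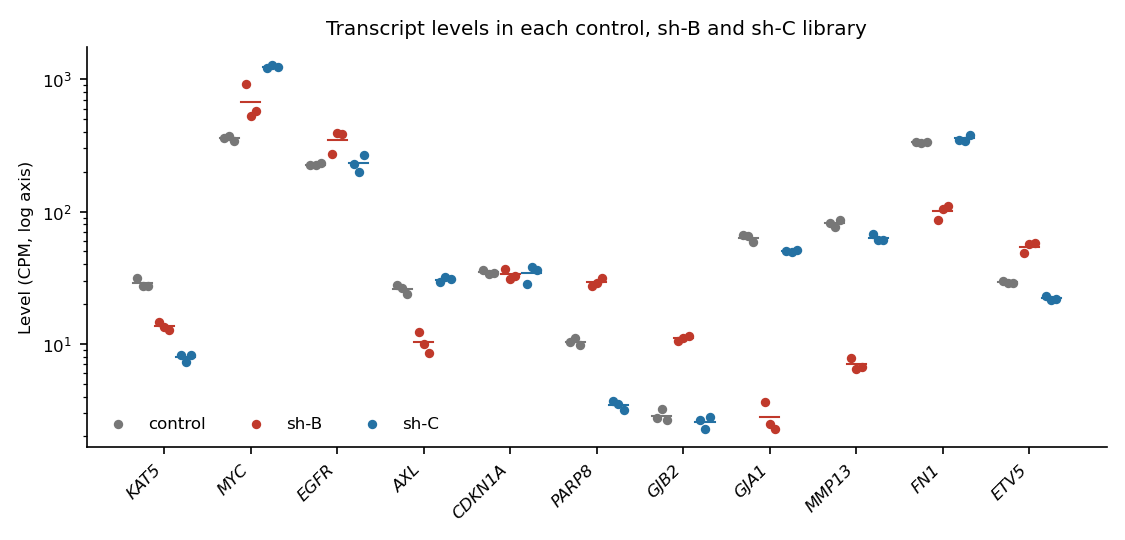
Points are the level of each gene in each control, sh-B and sh-C library in CPM on a log axis, and short lines are group means over 3 libraries. KAT5 and MYC are ordered through control, sh-B and sh-C in opposite directions, whereas GJA1, MMP13, FN1 and AXL are low with sh-B.

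The 79 called genes that stepped up from control through sh-B to sh-C included SRM, the spermidine synthase gene, RHOB, a small GTPase gene induced early by stress, UTP20, a factor of small ribosomal subunit assembly, and MRPL38, a mitochondrial ribosomal protein. UTP20 and MRPL38 lost their calls in several leave-one-out fits. SRM was at 94.2, 85.03 and 91.6 CPM with sh-B, 101, 149.5 and 151 with sh-C and 67.4, 62.4 and 71.4 in the control (log2 difference -0.57, SE 0.14, adjusted p = 0.0086). RHOB was at 132, 61.5 and 62.5 with sh-B, 142, 177 and 172 with sh-C and 48.3, 42.9 and 41.96 in the control (log2 difference -0.94, SE 0.27, adjusted p = 0.023), and its call was lost when sh-B 4, sh-B 5, sh-C 2 or sh-C 3 was left out (adjusted p up to 0.1). In both genes the groups were separate, although sh-B 3 came close to sh-C 1 in RHOB. Among the 42 that stepped down in the order of KAT5 were MALAT1, a nuclear long non-coding RNA, and SH3BGRL, which encodes a small thioredoxin-like adaptor. MALAT1 was at 71.6, 92.5 and 84.1 with sh-B, 63.5, 49.4 and 44.3 with sh-C and 112, 128 and 139 in the control (log2 difference 0.66, SE 0.14, adjusted p = 0.0044). Its block median was 0.24. SH3BGRL was at 32.99, 31.9 and 31.7 with sh-B, 20.6, 24.5 and 20.1 with sh-C and 46.5, 46.3 and 48.05 in the control (log2 difference 0.56, SE 0.08, adjusted p = 0.00042).

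Because MYC had the same order as these 79 genes, the letters CACGTG, the canonical E-box that MYC and MAX bind, were looked for in the 250 bases before each gene's start in RefSeq (GRCh38.p14). The motif reads the same on both strands, and no other motif was searched. Of the 79 genes 70 had a promoter in the table, and 10 of those (14.3%) held the motif, beside 8.72% of the 12112 tested genes with a promoter. Among genes higher in sh-B the share was 7.74% and among genes lower in sh-B 9.03%. Of the 42 genes that stepped down from control through sh-B to sh-C, 38 had a promoter and 3 (7.89%) held the motif. The shares were not tested against each other, and a part of MYC in these orders was not tested. The motif is shown in capitals in 2 of the 10 promoters. In SRM (minus strand, chr1:11060019-11060268) it begins 199 bases before the start, and in CDK4 (minus strand, chr12:57752311-57752560) it occurs 3 times. CDK4, the G1 cyclin-dependent kinase gene, was chosen after its values were seen and differed little between the hairpins (log2 difference -0.25, SE 0.08, adjusted p = 0.038). Its call was lost under 13 of 23 alternatives, with an adjusted p of up to 0.16. A match is a description of the letters and says nothing of binding.
SRM: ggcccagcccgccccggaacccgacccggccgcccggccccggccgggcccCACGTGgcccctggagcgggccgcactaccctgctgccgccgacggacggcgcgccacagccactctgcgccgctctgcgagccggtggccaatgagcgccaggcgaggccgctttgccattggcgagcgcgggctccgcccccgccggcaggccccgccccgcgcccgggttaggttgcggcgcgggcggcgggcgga
CDK4: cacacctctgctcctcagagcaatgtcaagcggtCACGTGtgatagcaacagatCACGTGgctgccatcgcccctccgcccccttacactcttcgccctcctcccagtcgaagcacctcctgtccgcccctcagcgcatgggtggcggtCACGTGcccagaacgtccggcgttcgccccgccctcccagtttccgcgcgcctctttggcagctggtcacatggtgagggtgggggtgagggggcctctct

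The genes with the largest differences were mostly genes nearly lost with sh-B. GJA1 encodes connexin 43, the main gap junction protein of many epithelial and mesenchymal cells. It was at 3.64, 2.47 and 2.27 CPM with sh-B against 50.05, 49.3 and 50.9 with sh-C and 66.7, 65.2 and 58.9 in the control, 18-fold lower in sh-B than in sh-C (log2 difference -4.17, SE 0.15, adjusted p = 2.5e-08). Both hairpins lay below the control, sh-C by a small margin.

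INPP4B, a phosphoinositide phosphatase that limits AKT signalling, was at 0.776, 0.398 and 0.713 CPM with sh-B, 13.5, 11.3 and 12.1 with sh-C and 12.6, 12.7 and 12.8 in the control (log2 difference -4.30, SE 0.19, adjusted p = 9.8e-08). RAPGEF5, an exchange factor for Rap GTPases, was at 0.194, 0.278 and 0.134 with sh-B, 5.90, 6.19 and 6.02 with sh-C and 10.2, 10.5 and 9.63 in the control (log2 difference -4.85, SE 0.22, adjusted p = 9.8e-08). IL24, a cytokine of the IL-10 family, was at 0.873, 0.795 and 0.891 with sh-B, 17.7, 16.9 and 14.2 with sh-C and 19.3, 16.6 and 17.98 in the control (log2 difference -4.25, SE 0.2, adjusted p = 1.1e-07). In these genes sh-B was under 1 CPM in every library while sh-C stayed near or moderately below the control. The same held for STRA6, the cell surface receptor for retinol-binding protein (log2 difference -4.84, SE 0.38, adjusted p = 5.8e-06), for PLXNA2, a semaphorin receptor (log2 difference -4.18, SE 0.3, adjusted p = 2.9e-06), and for ALPPL2, a placental-like alkaline phosphatase with close copies in the genome, so that its reads may be shared (log2 difference -5.63, SE 0.78, adjusted p = 0.00026).

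In 409 of the 2320 genes lower in sh-B the hairpins lay on opposite sides of the control. KCNS3, a modifier subunit of potassium channels, was at 0.485, 0.199 and 0.178 CPM with sh-B, 6.56, 7.08 and 7.32 with sh-C and 4.97, 4.11 and 4.35 in the control, below it with one hairpin and above with the other (log2 difference -4.61, SE 0.35, adjusted p = 5.4e-06). TFPI2, an inhibitor of serine proteases in the extracellular matrix, had the same arrangement at 1.16, 0.318 and 0.534 with sh-B, 6.21, 6.37 and 6.34 with sh-C and 4.23, 4.43 and 3.35 in the control (log2 difference -3.25, SE 0.34, adjusted p = 4.6e-05; block median -0.39), as did OR51B5, an olfactory receptor gene (log2 difference -4.91, SE 0.4, adjusted p = 7.6e-06).

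The genes with the largest differences in the other direction were above the control with sh-B, and often below it with sh-C. PARP8, an ADP-ribosyltransferase, was at 27.3, 28.8 and 31.6 CPM with sh-B, 3.71, 3.52 and 3.17 with sh-C and 10.3, 11.2 and 9.79 in the control, 8.42-fold higher in sh-B than in sh-C (log2 difference 3.07, SE 0.14, adjusted p = 9.8e-08). MCTP1, a calcium-binding membrane protein, was at 9.02, 7.95 and 7.84 with sh-B, 1.02, 1.19 and 0.848 with sh-C and 2.88, 2.06 and 2.30 in the control (log2 difference 3.01, SE 0.19, adjusted p = 1.4e-06). The control lay between the hairpins in both genes, and also in SLITRK6, a transmembrane protein with leucine-rich repeats (log2 difference 2.62, SE 0.27, adjusted p = 4e-05), in RIMKLB, which synthesises N-acetylaspartylglutamate (log2 difference 2.38, SE 0.41, adjusted p = 0.0012), and in MAOB, monoamine oxidase B (log2 difference 2.12, SE 0.34, adjusted p = 0.00079).

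GJB2, which encodes connexin 26, another gap junction protein, lay above the control with sh-B only, opposite to GJA1. It was at 10.5, 11.2 and 11.5 CPM with sh-B against 2.65, 2.30 and 2.81 with sh-C and 2.75, 3.21 and 2.66 in the control (log2 difference 2.10, SE 0.23, adjusted p = 5.5e-05). SHC3, a neuronal adaptor of receptor tyrosine kinases, was at 10.7, 9.66 and 10.2 with sh-B, 1.98, 2.11 and 2.19 with sh-C and 2.53, 3.34 and 2.94 in the control (log2 difference 2.28, SE 0.14, adjusted p = 1.4e-06), and sh-C lay slightly below the control. PCSK1N, an inhibitor of a prohormone convertase (log2 difference 2.14, SE 0.27, adjusted p = 0.00013), and UCHL1, a ubiquitin hydrolase of neurons (log2 difference 2.25, SE 0.59, adjusted p = 0.014), were likewise above the control in sh-B while sh-C overlapped it. The call of UCHL1 was lost without sh-C 2, at an adjusted p of 0.052, and without both sh-B 3 and sh-C 1, at 0.083.

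The differences between the hairpins also ran along chromosomes. With 13875 genes of at least 1 CPM set in the order of the RefSeq annotation (GRCh38.p14, used for order only), chromosome 20 was lower in sh-B as a whole: 90.3% of its 362 genes had a negative log2 difference, 248 of them were called lower and 6 higher, and the median was -0.56. Chromosome 16 had 277 of 642 genes called lower and 14 higher (median -0.32). On chromosome 3, by contrast, 261 of 786 genes were called higher and 38 lower (median 0.24), and on chromosome 10 the counts were 195 and 33 of 562 (median 0.23). Chromosome 2, for comparison, had 103 of 884 called higher and 100 lower (median -0.01).

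These shifts were mostly in sh-B when each library was set against the control mean. The median over the genes of chromosome 20 was -0.45, -0.49 and -0.44 in sh-B 3, 4 and 5 and 0.06, 0.06 and 0.07 in sh-C 1, 2 and 3, while the control libraries lay between -0.02 and 0.01. On chromosome 16 the sh-B libraries were at -0.23, -0.25 and -0.22 and the sh-C libraries at 0, 0.09 and 0.06. On chromosome 10 all 3 sh-B libraries were at 0.25, and the sh-C libraries were at 0.05, -0.01 and 0.02. The 3 sh-B libraries lay close together on each of these chromosomes, sh-B 3 included, and overlapped neither the control nor sh-C.

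**Figure D3:**
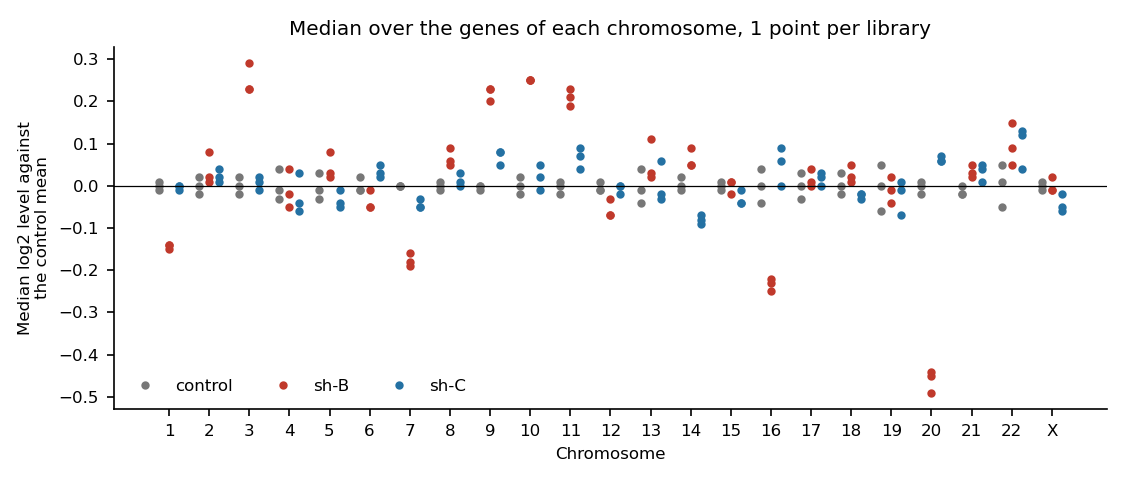
Each point is 1 library, at the median over the genes of a chromosome of its log2 level against the control mean (pseudocount 0.5 CPM). The sh-B points of chromosome 20 lie between -0.49 and -0.44 and those of chromosome 10 at 0.25, away from the control and sh-C points.

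Within chromosomes the shifts covered some stretches and not others. The ordered genes were divided into 233 blocks of about 60, and a block was called shifted, by a rule set after the pattern was seen, where its median log2 difference was at least 0.25 in size and at least 75% of its genes lay on one side of 0. Of the 233 blocks 38 were shifted, 27 lower in sh-B and 11 higher, in 16 runs of neighbouring blocks. On chromosome 1 a run of 300 genes from PIAS3 to TNN had a median of -0.55, with 182 called lower and 11 higher, and a second run of 120 genes from TAF1A to PGBD2 had a median of -0.30. On chromosome 7 the runs from GTPBP10 to LOC100289561 and from ST7-AS1 to VIPR2 had medians of -0.45 and -0.35. At the far end of chromosome 3 the 120 genes from ZMAT3 to FAM157A had a median of 0.44, and 69 were called higher. On chromosome 19 the first 61 genes, from WASH5P to AP3D1, had a median of -0.64.

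Over the 27 lower blocks the median level against the control was -0.38 in sh-B and 0.01 in sh-C, and over the 11 higher blocks it was 0.3 and -0.01. One exception was the block from ZNF432 to LAIR1 on chromosome 19, which was at 0.03 in sh-B and -0.28 in sh-C. In some lower blocks sh-C lay above the control mean while sh-B lay below it. The first block of chromosome 20 was at -0.38 in sh-B and 0.14 in sh-C. The first blocks of chromosomes 16 and 19 were at -0.24 and -0.42 in sh-B and at 0.18 in sh-C, where the sh-C libraries were uneven. The shifted blocks held 2269 genes, 16.4% of those ordered, and 1218 of the 4208 called genes among them, 28.9%. Inside the blocks 53.7% of genes were called and outside 25.8%. The blocks were chosen by these same differences, so a larger share inside them follows by construction. DNA copy number was not measured in these libraries, and its part in the differences was not tested. Counts of a list inside or outside these blocks are therefore given below, and a block median is the median log2 difference of the about 60 genes around a gene, itself included. The counts of each list are to be set beside the 13% of all genes tested that were called higher in sh-B and the 14.9% called lower. Those outside the blocks are to be set beside the 25.8% of ordered genes called there in either direction.

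**Figure D4:**
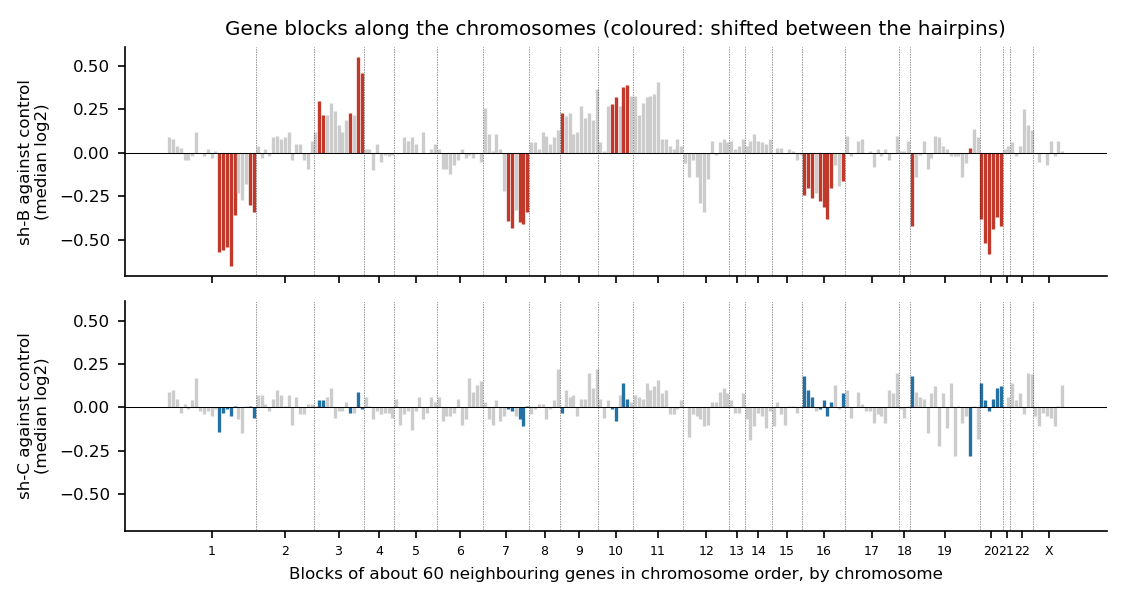
Bars are the mean over 3 libraries of the median log2 level against the control, in blocks of about 60 neighbouring genes along each chromosome, for sh-B above and sh-C below; coloured bars are the 38 blocks shifted between the hairpins. In sh-B, stretches of chromosomes 1, 7 and 16 and all of chromosome 20 lie below 0 and stretches of chromosomes 3 and 10 above it, and sh-C stays near 0 in most of them.

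Genes of growth and division that differed were mostly lower in sh-B than in sh-C, by small steps. Of 30 nucleolar and ribosome biogenesis genes 6 were lower and 1 higher (median -0.16), among them BOP1, a factor of large ribosomal subunit assembly, at 72.9, 64.5 and 71.7 CPM with sh-B, 99.6, 124 and 116 with sh-C and 75.9, 60.8 and 75.6 in the control (log2 difference -0.70, SE 0.12, adjusted p = 0.0011). In BOP1 it was sh-C that lay outside the control, and in the whole list sh-C lay above the control in 22 of 30 genes and sh-B in 10. No gene of the list lay below the control with either hairpin. Over all genes tested 48.7% with sh-B and 45.4% with sh-C lay outside the control, above or below. Of 39 cytosolic ribosomal protein genes 5 were lower and none higher (median -0.17), a count no larger in proportion than the 14.9% of all genes tested that were called lower, and 3 of the 5 fell in shifted blocks. Ribosomal protein genes have many near-identical pseudogenes, so their levels are uncertain.

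Oxidative phosphorylation genes were lower in 10 of 32 and higher in none (median -0.12). SDHC, an anchor subunit of complex II, was at 58.5, 53.2 and 57.00 CPM with sh-B, 96.1, 104 and 101 with sh-C and 90.3, 98.8 and 89.1 in the control (log2 difference -0.84, SE 0.07, adjusted p = 1.1e-05). Only sh-B lay outside the control in SDHC, which is in the block of chromosome 1 with a median of -0.74. Outside the shifted blocks 6 of 27 genes of this list were lower.

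Of 33 genes of the G1/S transition and DNA replication 14 were lower in sh-B and 1, CCND1 (cyclin D1), was higher, with a median of -0.24. TYMS, thymidylate synthase, was at 90.3, 82.2 and 86.97 CPM with sh-B, the level of the control at 95.1, 84.3 and 80.4, and at 177, 182 and 183 with sh-C (log2 difference -1.06, SE 0.09, adjusted p = 8.5e-06). PCNA, the sliding clamp of DNA polymerases, was at 201, 183 and 199 with sh-B, 352, 363 and 329 with sh-C and 288, 282 and 258 in the control (log2 difference -0.84, SE 0.09, adjusted p = 3.7e-05). E2F1, a transcription factor that drives S-phase genes, was at 32.3, 34.1 and 40.4 with sh-B, 54.1, 70.8 and 71.2 with sh-C and 53.5, 47.6 and 50.4 in the control (log2 difference -0.88, SE 0.12, adjusted p = 0.00026). In TYMS sh-C alone lay above the control, while in PCNA and E2F1 the hairpins lay on either side of it. PCNA and E2F1 are on chromosome 20, in blocks with medians of -0.63 and -0.60, and TYMS is in a block with a median of 0. Outside the shifted blocks 8 of 25 genes were lower and 1 higher (median -0.11).

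Among 35 genes of G2/M and mitosis 15 were lower in sh-B and 3 higher (median -0.19). AURKA, a mitotic kinase, was at 128, 108 and 109 CPM with sh-B, 199.6, 198 and 199 with sh-C and 157, 161 and 150.1 in the control (log2 difference -0.79, SE 0.08, adjusted p = 2.6e-05). PLK1, another mitotic kinase, was at 203, 189 and 188 with sh-B, 265, 302 and 286 with sh-C and 229, 237 and 222 in the control (log2 difference -0.56, SE 0.07, adjusted p = 0.00021). ECT2, an exchange factor of cytokinesis, went the other way at 358, 372 and 361 with sh-B, 238, 231 and 239 with sh-C and 222, 236 and 207 in the control (log2 difference 0.62, SE 0.07, adjusted p = 5.5e-05). All groups were separate in AURKA, and in ECT2 sh-B alone lay above the control. The blocks around AURKA, PLK1 and ECT2 had medians of -0.54, -0.40 and 0.21, and outside the shifted blocks 9 of 29 genes were lower and 3 higher. Replication-dependent histone genes have messages that mostly lack a poly-A tail and are close copies of each other. They were lower in 2 of 16 and higher in none, beside 14.9% and 13% of all genes tested.

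Among 28 p53 targets and CDK inhibitors 5 were higher in sh-B and 3 lower, or 2 and 2 of 23 outside the shifted blocks. CDKN1A, the p21 inhibitor and a main p53 target, did not pass the test: it was at 36.96, 31.02 and 32.6 CPM with sh-B, 28.6, 38.5 and 36.01 with sh-C and 36.2, 33.97 and 34.3 in the control, with a log2 difference of -0.04 and a 95% interval of -0.29 to 0.21. ZMAT3, an RNA-binding p53 target, was at 33.96, 42.8 and 39.5 with sh-B, 19.3, 20.5 and 23.6 with sh-C and 19.9, 21 and 19.9 in the control (log2 difference 0.87, SE 0.13, adjusted p = 0.00037), in a block with a median of 0.44. FAS, a death receptor, was higher as well (log2 difference 0.47, SE 0.09, adjusted p = 0.0023; block median 0.32). Of 30 genes of DNA double-strand break repair, a process in which KAT5 takes part, 1 was higher in sh-B and 5 lower. The shares over all genes tested were 13% and 14.9%, and 3 of the 5 lower genes lay outside the blocks. The higher one was RNF168, a ubiquitin ligase at breaks, at 70.6, 79.7 and 73.9 with sh-B, 49.6, 41.9 and 42.2 with sh-C and 51.5, 50.2 and 48.2 in the control (log2 difference 0.75, SE 0.08, adjusted p = 6.3e-05; block median 0.45). NHEJ1, an end-joining factor, was lower (log2 difference -0.65, SE 0.11, adjusted p = 0.0009), with sh-B at the control and sh-C above it.

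EGFR, the receptor that is mutant in H1975 cells, and its ligand genes TGFA and AREG were higher in sh-B, while another of its ligand genes, HBEGF, was lower (log2 difference -0.72, SE 0.24, adjusted p = 0.04). Of 12 genes of the EGFR family and its ligands 4 were higher and 1 lower, the fourth higher one being NRG1, a ligand of ERBB3 and ERBB4. EGFR was at 271, 391.7 and 386 CPM with sh-B, 229, 198 and 267 with sh-C and 225, 223 and 232 in the control (log2 difference 0.60, SE 0.15, adjusted p = 0.01). The sh-B libraries were all above the others, with sh-B 3 close to the highest sh-C library, and sh-C overlapped the control. Without sh-B 4 the adjusted p of EGFR was 0.051, and without sh-C 2 it was 0.053. The ligand gene TGFA was at 48.7, 55.6 and 53.2 with sh-B, 30.9, 30.9 and 31.7 with sh-C and 30.7, 32.6 and 32.8 in the control (log2 difference 0.75, SE 0.12, adjusted p = 0.00072). Here sh-B alone lay outside the control. AREG, another ligand, was at 47.4, 34.7 and 35.6 with sh-B, 27.4, 26.8 and 23.6 with sh-C and 33.98, 34.2 and 33.4 in the control (log2 difference 0.60, SE 0.12, adjusted p = 0.0036), on either side of the control. None of the 12 genes was in a shifted block.

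The genes that report and restrain MAPK signalling had the highest share of genes called higher in sh-B among the 39 lists examined. Of 24 tested 13 were higher and 1, MYC, was lower, with a median log2 difference of 0.39. Outside the shifted blocks 11 of 22 were higher and 1 lower. ETV5, an ETS factor induced by ERK, was at 48.3, 56.7 and 58.3 CPM with sh-B, 22.9, 21.6 and 21.8 with sh-C and 29.8, 28.9 and 29.1 in the control (log2 difference 1.30, SE 0.13, adjusted p = 3.1e-05; block median 0.44). SPRY4, a feedback inhibitor of receptor signalling, was at 20.6, 22.03 and 21.1 with sh-B, 9.82, 8.93 and 8.88 with sh-C and 11.8, 11.4 and 12.9 in the control (log2 difference 1.21, SE 0.1, adjusted p = 7.3e-06). In both genes sh-B lay above and sh-C below the control without overlap. DUSP5, a nuclear phosphatase of ERK, was above the control with both hairpins and more so with sh-B, at 112, 113 and 119 against 66.2, 73.7 and 70.8 and 51.3, 48.5 and 52.1 (log2 difference 0.71, SE 0.07, adjusted p = 3.1e-05; block median 0.33). SPRY1 had the same order (log2 difference 1.13, SE 0.12, adjusted p = 5.2e-05). DUSP6, the cytoplasmic phosphatase of ERK, had a log2 difference of 1.61 (SE 0.17, adjusted p = 5.2e-05), ETV1 of 1.84 (SE 0.22, adjusted p = 0.00011) and SPRY2 of 0.82 (SE 0.16, adjusted p = 0.0022).

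Other receptor tyrosine kinases and ligands split, with 4 of 23 higher and 4 lower, none of the 8 in a shifted block. AXL, a receptor often raised in cells that resist EGFR inhibitors, was at 12.4, 10.02 and 8.60 CPM with sh-B, 29.5, 31.8 and 30.7 with sh-C and 28.01, 26.6 and 23.8 in the control (log2 difference -1.57, SE 0.28, adjusted p = 0.0013). It was well below the control with sh-B and slightly above it with sh-C. FGFR3 was lower with sh-B as well (log2 difference -1.52, SE 0.22, adjusted p = 0.00042), whereas PDGFA, a ligand (log2 difference 0.78, SE 0.11, adjusted p = 0.00037), and ROR1, an orphan receptor (log2 difference 0.68, SE 0.1, adjusted p = 0.00055), were higher. Immediate early genes, which respond to serum and stress within minutes, were lower in sh-B in 7 of 27 and higher in none (median -0.48), with 1 of the 7 in a shifted block. Of these DUSP1, a phosphatase of stress kinases, was at 19.8, 6.52 and 7.30 with sh-B, 26.6, 36.8 and 37.3 with sh-C and 8.15, 8.28 and 9.31 in the control (log2 difference -1.59, SE 0.37, adjusted p = 0.0069), so that sh-C lay above the control and sh-B 3 above the other sh-B libraries.

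**Figure D5:**
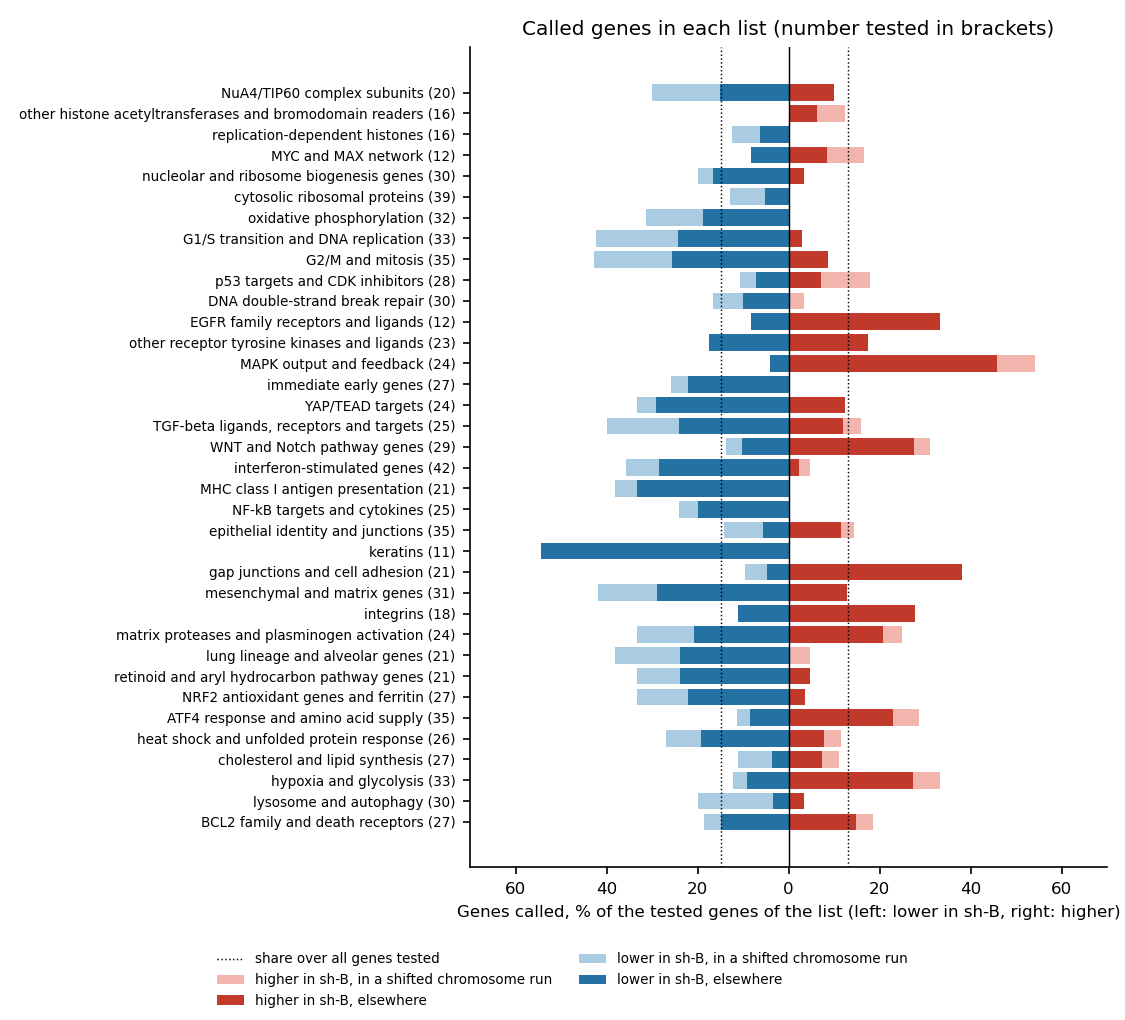
Bars give the share of the tested genes of each list that were called higher in sh-B (right) or lower (left), with the part in shifted chromosome blocks in pale colour, and dotted lines mark the shares over all genes tested (13% and 14.9%). The MAPK list extends farthest to the right, and keratin, cell cycle, mesenchymal and TGF-beta lists are among those that extend to the left.

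Targets of YAP and TEAD, the transcription factors of the Hippo pathway, were lower in sh-B in 8 of 24 and higher in 3, with 1 of the lower genes in a shifted block. AMOTL1, a YAP-binding angiomotin, was at 4.75, 8.71 and 7.88 CPM with sh-B, 30.01, 24.6 and 28.5 with sh-C and 41.8, 41.5 and 44.1 in the control (log2 difference -1.95, SE 0.19, adjusted p = 2.4e-05), below it with both hairpins. AMOTL2 was at 59.4, 45.2 and 48.6 with sh-B, 87.8, 97.1 and 108 with sh-C and 55.8, 52.9 and 55.7 in the control (log2 difference -0.93, SE 0.11, adjusted p = 7.6e-05; block median 0.26, opposite to AMOTL2), where sh-C alone lay above the control. CTGF and CYR61, secreted matrix proteins widely used to read YAP activity, had log2 differences of -2.82 (SE 0.62, adjusted p = 0.0054) and -1.81 (SE 0.48, adjusted p = 0.015).

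TGF-beta ligands, receptors and targets were lower in 10 of 25 and higher in 4, the higher ones being the receptors TGFBR1 and TGFBR2, the binding protein LTBP2 and the ligand BMP4. TGFBR1, the type I receptor, was at 68.8, 83.1 and 82.7 CPM with sh-B, 47.4, 47.9 and 51.2 with sh-C and 57.6, 61.2 and 55.7 in the control (log2 difference 0.68, SE 0.09, adjusted p = 0.00025). TGFBR2, the type II receptor, was higher with a log2 difference of 0.60 (SE 0.11, adjusted p = 0.0021; block median 0.25). TGFBI, a matrix protein named for its induction by TGF-beta, was at 1171, 1023 and 1045 with sh-B, 2076, 2440.0 and 2449 with sh-C and 2324, 2223 and 2307 in the control (log2 difference -1.10, SE 0.13, adjusted p = 0.0001). In TGFBI sh-B alone lay below the control. BMP2, a ligand, was at 19.6, 15.3 and 14.9 with sh-B, 40.99, 37.1 and 42.1 with sh-C and 30.3, 30.8 and 29.3 in the control (log2 difference -1.27, SE 0.1, adjusted p = 7.7e-06), but its block on chromosome 20 had a median of -0.63. The inhibitory SMAD genes SMAD6 and SMAD7 and the target genes ID1, ID2 and ID3 were lower in sh-B as well, and were named after their values were seen. SMAD7 had a log2 difference of -0.92 (SE 0.18, adjusted p = 0.0023). SMAD6, close to the threshold, had one of -0.59 (SE 0.2, adjusted p = 0.046). ID1 had -0.86 (SE 0.24, adjusted p = 0.018) in a block of chromosome 20 with a median of -0.62, ID2 -0.86 (SE 0.2, adjusted p = 0.0074) and ID3 -1.02 (SE 0.22, adjusted p = 0.0051). Outside the shifted blocks 6 of 19 genes of the list were lower and 3 higher.

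Mesenchymal and matrix genes were lower in sh-B in 13 of 31 and higher in 4, with a median of -0.44. Outside the shifted blocks 9 of 26 were lower and 4 higher. FN1, fibronectin, was at 86.9, 104 and 109.9 CPM with sh-B against 349, 344 and 379.9 with sh-C and 336, 329.5 and 333 in the control (log2 difference -1.84, SE 0.15, adjusted p = 7.3e-06). COL6A2, a collagen VI chain, was at 4.66, 3.34 and 2.94 with sh-B, 15.5, 17.2 and 16.6 with sh-C and 18.3, 17.7 and 21.1 in the control (log2 difference -2.18, SE 0.15, adjusted p = 2.3e-06). MYL9, a regulatory light chain of non-muscle myosin, was at 10.8, 7.83 and 7.93 with sh-B, 54.7, 50.98 and 49.9 with sh-C and 68.3, 64.2 and 61.95 in the control (log2 difference -2.56, SE 0.17, adjusted p = 1.7e-06). In all 3 genes the sh-B libraries were far below the other groups and sh-C lay near the control, a little below it in COL6A2 and MYL9 and a little above in FN1. MYL9 is on chromosome 20, in a block with a median of -0.60. VIM, vimentin, the intermediate filament of mesenchymal cells, went against the list, with a log2 difference of 1.46 (SE 0.27, adjusted p = 0.0017).

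Matrix proteases and genes of plasminogen activation were lower in 8 of 24 and higher in 6, or 5 and 5 of 19 outside the shifted blocks. The collagenase MMP13 was at 7.81, 6.52 and 6.68 CPM with sh-B, 67.3, 60.6 and 61.5 with sh-C and 81.7, 75.96 and 86.7 in the control (log2 difference -3.17, SE 0.26, adjusted p = 8.3e-06). MMP1, another collagenase, had a log2 difference of -3.01 (SE 0.88, adjusted p = 0.024). MMP14, the membrane-bound protease that activates other proteases, was at 11.1, 2.74 and 3.03 with sh-B, 19.7, 22.7 and 22.9 with sh-C and 26.8, 21.8 and 25.8 in the control (log2 difference -1.97, SE 0.38, adjusted p = 0.0024), with sh-B 3 several-fold above the other sh-B libraries. PLAU, the urokinase plasminogen activator, was higher in sh-B at 543, 439.7 and 469 with sh-B, 249, 284 and 269.5 with sh-C and 263, 254 and 267 in the control (log2 difference 0.85, SE 0.11, adjusted p = 0.00019; block median 0.32). Integrins were higher in 5 of 18 and lower in 2. ITGA6, the laminin receptor subunit, was at 569.7, 509 and 499 with sh-B, 347, 311 and 343 with sh-C and 283, 298 and 271 in the control (log2 difference 0.66, SE 0.08, adjusted p = 9.7e-05). ITGB3, which binds vitronectin and fibronectin, was lower (log2 difference -1.11, SE 0.22, adjusted p = 0.0031).

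Epithelial identity and junction genes were split evenly, with 5 of 35 higher and 5 lower, near the 13% and 14.9% of all genes tested. Outside the shifted blocks 4 of 29 were higher and 2 lower. PKP2, a desmosomal plaque protein, was at 38.2, 40.3 and 37.4 CPM with sh-B, 17.3, 16.2 and 18.2 with sh-C and 17.5, 16.8 and 17.2 in the control (log2 difference 1.17, SE 0.14, adjusted p = 9.9e-05). Here sh-B alone lay above the control. CLDN1, a tight junction claudin, was higher (log2 difference 1.36, SE 0.17, adjusted p = 0.00015; block median 0.45). OVOL2, a transcription factor that keeps epithelial identity, was lower (log2 difference -1.31, SE 0.18, adjusted p = 0.00025; block median -0.62). Keratins were lower in 6 of 11 and higher in none (median -0.80), and none of the 11 was in a shifted block. KRT7, KRT80, KRT81 and KRT86 were in 1 block of chromosome 12, with a median of -0.20. That block had 23 of 59 genes called lower and 3 higher, and was just short of the rule for a shifted block. KRT7, an abundant keratin of simple epithelia, was at 1578, 1097 and 1157 with sh-B, 2241, 2289 and 2139 with sh-C and 1469, 1346 and 1366 in the control (log2 difference -0.80, SE 0.15, adjusted p = 0.0021), above the control in sh-C only. KRT81, a hair keratin with close copies, was below the control with both hairpins and more so with sh-B, at 1.46, 1.91 and 2.00 with sh-B, 6.31, 7.30 and 7.05 with sh-C and 15.8, 12.5 and 16.7 in the control (log2 difference -1.94, SE 0.17, adjusted p = 1.4e-05). Of 21 gap junction and adhesion genes 8 were higher and 2 lower, among them GJB2 and GJA1, described above. The largest difference upward was that of PVRL3 (nectin-3), 5.55-fold higher in sh-B (log2 difference 2.47, SE 0.44, adjusted p = 0.0014).

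Genes of the lung lineage were lower in 8 of 21 and higher in 1, and the Iroquois and SOX2 transcription factors were almost absent with sh-B. IRX2 had no count in the 3 sh-B libraries and was at 3.66, 2.85 and 2.45 CPM with sh-C and 4.58, 4.17 and 5.44 in the control, at least 68-fold higher in sh-C than a floor of 3 counts over the sh-B group (edgeR adjusted p = 5.8e-06). IRX3 was at 0.145, 0.119 and 0.223 with sh-B, 3.41, 4.71 and 4.20 with sh-C and 6.10, 5.52 and 6.13 in the control (log2 difference -4.63, SE 0.27, adjusted p = 8.2e-07; block median -0.31). IRX5, of the same gene cluster on chromosome 16, was at 0.922, 0.597 and 0.713 with sh-B, 13.8, 13.9 and 12.99 with sh-C and 12.98, 11.4 and 12.5 in the control (log2 difference -4.19, SE 0.32, adjusted p = 5.7e-06; block median -0.31). SOX2, a transcription factor of airway progenitors, was at 0.0485, 0 and 0 with sh-B, 4.53, 3.26 and 3.75 with sh-C and 4.01, 3.34 and 4.88 in the control (adjusted p = 1.6e-06). All 4 genes were expressed at a similar level in sh-C and in the control, with sh-C somewhat lower in IRX2 and IRX3. Outside the shifted blocks 5 of 14 genes of this list were lower and none higher, and the block around SOX2 had a median of 0.44, opposite to SOX2. CDH5, an endothelial cadherin that H1975 expresses at a low level, was also without a count in sh-B and at 2.19, 2.08 and 1.52 with sh-C and 2.66, 2.57 and 2.74 in the control, at least 43.8-fold higher in sh-C (adjusted p = 0.0013; block median -0.33). With limma on log2(FPKM + 1) CDH5 was not called, at a log2 difference of -0.52 and an adjusted p of 0.21.

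Interferon-stimulated genes were lower in sh-B in 15 of 42 and higher in 2, with a median of -0.53. Both hairpins lay below the control in this list, sh-B in 36 of the 42 genes and sh-C in 34, with medians against the control of -1.13 and -0.55. With sh-B 1 gene lay above the control. The shares of all genes tested that lay outside it, above or below, were 48.7% with sh-B and 45.4% with sh-C. IFI27 was at 3.10, 2.67 and 2.67 CPM with sh-B, 11.8, 12.2 and 12.3 with sh-C and 29.1, 30.7 and 47.4 in the control (log2 difference -2.11, SE 0.39, adjusted p = 0.002). SAMD9, an antiviral effector, was at 95.8, 107 and 98.1 with sh-B, 250.1, 191 and 214 with sh-C and 296, 346 and 323 in the control (log2 difference -1.12, SE 0.2, adjusted p = 0.0016; block median -0.39). IFI16, a sensor of nuclear DNA, was at 81.6, 77.5 and 78.3 with sh-B, 169, 148 and 143 with sh-C and 249.8, 297 and 296 in the control (log2 difference -0.95, SE 0.16, adjusted p = 0.00098; block median -0.74). Each of the 3 genes stepped down from control through sh-C to sh-B without overlap. BST2 (tetherin) was among the 2 that were higher in sh-B, with a log2 difference of 1.21 (SE 0.23, adjusted p = 0.002). Outside the shifted blocks 12 of 35 genes were lower and 1 higher.

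MHC class I antigen presentation genes were lower in 8 of 21 and higher in none (median -0.29), with 1 of the 8 in a shifted block. HLA-B was at 78.9, 80.5 and 82.5 CPM with sh-B, 148, 192 and 181 with sh-C and 169, 146 and 179.5 in the control (log2 difference -1.11, SE 0.16, adjusted p = 0.00037). TAP1, a peptide transporter subunit, was at 23.5, 23.4 and 25.1 with sh-B, 34.7, 40.1 and 38.2 with sh-C and 36.5, 34.3 and 40.5 in the control (log2 difference -0.65, SE 0.11, adjusted p = 0.0012). In both, sh-B alone lay outside the control. HLA genes are polymorphic and alike, so reads may be shared between them. NF-kB targets and cytokines were lower in 6 of 25 and higher in none. Besides IL24, IL32 was at 10.8, 3.78 and 3.92 with sh-B, 24.3, 20.6 and 19.5 with sh-C and 14.4, 14.6 and 10.7 in the control (log2 difference -1.81, SE 0.35, adjusted p = 0.0023; block median -0.33), with sh-B 3 above the other sh-B libraries and sh-C above the control.

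Antioxidant genes of the NRF2 pathway and ferritin were lower in 9 of 27 and higher in 1 (median -0.18), or 6 and 1 of 23 outside the shifted blocks. HMOX1, heme oxygenase 1, was at 40.6, 30.2 and 31.7 CPM with sh-B, 65.6, 89.7 and 86.2 with sh-C and 89.05, 80.5 and 79.05 in the control (log2 difference -1.24, SE 0.14, adjusted p = 9.1e-05). The gene that was higher was SLC7A11, the cystine transporter, at 80.8, 102 and 102 with sh-B, 48.1, 40.97 and 54.3 with sh-C and 40.3, 39.4 and 35.5 in the control (log2 difference 0.99, SE 0.15, adjusted p = 0.00048), which ATF4 also controls. The ATF4 response and amino acid supply were higher in 10 of 35 and lower in 4 (median 0.16), or 8 and 3 of 27 outside the blocks. DDIT4, an inhibitor of mTORC1, was at 77.03, 73.8 and 76.8 with sh-B, 49.03, 49.4 and 44.5 with sh-C and 63.9, 61.4 and 65.4 in the control (log2 difference 0.67, SE 0.07, adjusted p = 4.5e-05; block median 0.36), on either side of the control, and SLC38A2, a transporter of neutral amino acids, had the same arrangement (log2 difference 0.47, SE 0.09, adjusted p = 0.0024). The 4 lower genes were DDIT3, SHMT2, CEBPB and ATF5.

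Heat shock and unfolded protein response genes were lower in 7 of 26 and higher in 3 (median -0.28), or 5 and 2 of 22 outside the shifted blocks. HSPB1, a small heat shock protein, was at 318, 426 and 450.1 CPM with sh-B, 699, 923 and 929 with sh-C and 848, 678 and 926 in the control (log2 difference -1.09, SE 0.22, adjusted p = 0.0032). HSPA1A, an inducible HSP70 with a near-identical copy in HSPA1B, was at 130.0, 104 and 100.3 with sh-B, 224, 247 and 226 with sh-C and 176, 174 and 199 in the control (log2 difference -1.06, SE 0.13, adjusted p = 0.00011). In HSPB1 sh-B alone lay below the control, and in HSPA1A the hairpins lay on either side. Hypoxia and glycolysis genes were higher in 11 of 33 and lower in 4, or 9 and 3 of 30 outside the blocks. LDHA, lactate dehydrogenase A, was at 3519, 3440.0 and 3435 with sh-B, 2602, 2597 and 2459 with sh-C and 2628, 2665 and 2591 in the control (log2 difference 0.44, SE 0.06, adjusted p = 0.00026). FBP1, an enzyme of gluconeogenesis, was at 42.98, 44.8 and 47.2 with sh-B, 17.7, 19.8 and 16.3 with sh-C and 12.2, 13.2 and 12.9 in the control (log2 difference 1.33, SE 0.14, adjusted p = 4.5e-05). CA12, a carbonic anhydrase, was also higher (log2 difference 1.00, SE 0.16, adjusted p = 0.00074), and ALDOC and SLC2A3 (a glucose transporter) were among the 4 that were lower.

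Retinoid and aryl hydrocarbon pathway genes were lower in 7 of 21 and higher in 1, the receptor gene AHR, with 2 of the 7 in shifted blocks. CYP1B1, a cytochrome P450 induced by that receptor, was at 86.98, 84.6 and 86.3 CPM with sh-B, 220.2, 208 and 222 with sh-C and 257, 255 and 242 in the control (log2 difference -1.33, SE 0.06, adjusted p = 1.4e-07). CYP26B1, which degrades retinoic acid, was lower too (log2 difference -1.41, SE 0.14, adjusted p = 3.7e-05). WNT and Notch pathway genes were higher in 9 of 29 and lower in 4, or 8 and 3 of 25 outside the blocks. LFNG, a glycosyltransferase that modifies Notch, was at 3.83, 4.42 and 3.92 with sh-B, 7.32, 9.60 and 9.37 with sh-C and 6.97, 6.04 and 6.77 in the control (log2 difference -1.11, SE 0.14, adjusted p = 0.00013). NOTCH3, a receptor, was higher with a log2 difference of 1.31 (SE 0.44, adjusted p = 0.042). Lysosome and autophagy genes were lower in 6 of 30 and higher in 1, and 5 of the 6 were in shifted blocks, among them the cathepsin gene CTSS (log2 difference -1.45, SE 0.26, adjusted p = 0.0017; block median -0.50). BCL2 family and death receptor genes were higher in 5 of 27 and lower in 5, or 4 and 4 of 23 outside the blocks. The anti-apoptotic BCL2L2 (BCL-W) was higher (log2 difference 0.74, SE 0.1, adjusted p = 0.0002), and MCL1, also anti-apoptotic, was lower (log2 difference -0.55, SE 0.07, adjusted p = 0.00015) by about the median of its block, -0.50. Of 27 cholesterol and lipid synthesis genes 3 were higher and 3 lower, no larger in proportion than the 13% and 14.9% of all genes tested. FDPS, farnesyl diphosphate synthase, was among the lower (log2 difference -0.62, SE 0.08, adjusted p = 0.00012), again by about the median of its block, -0.59.

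Among markers of other cell types 2 of 6 leukocyte and 2 of 5 endothelial markers tested were lower in sh-B, beside 14.9% of all genes tested. Neither of the 2 fibroblast markers was called, and no marker in these lists was called higher. CD68 was at 80.9, 59.2 and 65.3 CPM with sh-B, 141, 106 and 102 with sh-C and 163, 173 and 174 in the control (log2 difference -0.76, SE 0.14, adjusted p = 0.0015), and is a lysosomal protein that epithelial tumour cells also make. The libraries come from 1 cell line, and any part of other cells in these results was not tested. In bulk RNA, fewer cells that express a gene and less RNA per cell cannot be told apart.

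In the authors' deposited table for sh-B, KAT5 had a log2 ratio to the control of -1.09, and in the one for sh-C of -1.86. The same tables gave MYC a log2 ratio of 0.91 with sh-B and 1.80 with sh-C, and GJA1 -4.50 and -0.34.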

How the data were processed

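Poly-A selected RNA was sequenced in 12 libraries of 4 groups of 3, and groups were taken from the sample titles. Per library, each gene has an expected count as deposited by the authors, an estimate of its fragments, and an FPKM value, the same scaled by the authors to transcript length and library size. RSEM, HISAT, Bowtie2 and the build hg19 are named per the submitters' processing notes. Their versions and settings were not given in the sources used here. Nothing there marks strand, so reads of a gene and its antisense partner cannot be told apart. The authors also deposited tables per hairpin with group means as a normalised signal, a log2 ratio and a probability named PPEE, stored like a p-value, whose tool is not stated. Symbols came from these tables, joined on gene ID, or from RefSeq.

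Rounded expected counts entered edgeR 4.0.16 (R 4.3.3), with TMM scaling, its default filter (minimum count 10) and its quasi-likelihood test. All 12 libraries were fitted as 4 group means, which share 1 estimate of spread, and Benjamini-Hochberg adjustment ran over the 15592 genes tested. The common biological coefficient of variation was 0.145. No test was made against the control, whose libraries were compared by range only. The fit was tested on simulated counts. Alternatives used DESeq2 1.42.0, limma 3.58.1, other scalings and filters, and sets of libraries.

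The genes named are KAT5, MYC, EGFR, AXL and CDKN1A; the 12 largest non-overlapping differences in each direction at 5 CPM or more; up to 4 called genes of smallest p in each of 39 lists; and the 6 clearest genes in each order of control and hairpins. CDK4 and other list members outside this rule, such as MMP1, VIM, DUSP6, CTGF and the SMAD and ID genes, were named after their values were seen. Some genes that meet the rule are not reported here. The comparison, lists and members were chosen with earlier results of these data known. Chromosome order came from RefSeq (GRCh38.p14) by gene ID, and the rule for shifted blocks was set after the pattern was seen.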

Additional observations from a re-analysis of the deposited data

How the results depend on the processing

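The count of genes that differ between sh-B and sh-C was 4344 and ranged from 2918 to 5693 when single libraries were left out, with the lowest count without sh-B 4 and the highest without sh-A 3. The count of genes higher in sh-B than in sh-C was then 1316 to 2694, with 1316 without sh-B 4 and 1349 without sh-C 2, against 2024 with all libraries. Leaving out sh-A 3, sh-B 3 and sh-C 1 together gave 7307 called genes, 3385 higher and 3922 lower. With limma on log2(FPKM + 1), 215 genes differed at least 2-fold against 812, since that scale shrinks the differences of low genes. Without the genes of the shifted chromosome runs, an alternative chosen after the data were seen, the count of genes lower in sh-B than in sh-C was 1428 against 2320, by construction with fewer genes counted. The log2 difference of CDKN1A, -0.04 and never called, was 0 with library totals, 0.03 and 0.02 with limma at a pseudocount of 0.1 and 1, and -0.15 to 0.05 when single libraries were left out. Of the 176 called genes named by the rule, CDK4 included, 152 kept their call under each of the 23 alternatives that gave a value. Of the rest, 24 lost it under at least 1, and 0 of the 176 reversed. The other genes named after their values were seen, such as HBEGF, SMAD6, NOTCH3 and MMP1, are not in this count. The median of chromosome 20 stayed between -0.61 and -0.45, and that of chromosome 10 between 0.21 and 0.27. No paired analysis was possible because the titles number the sh-B libraries 3 to 5 and the sh-C libraries 1 to 3, so that the 2 hairpins share only the number 3. With 3 libraries a group, small differences could be missed, and a gene that was not called is not shown to be equal.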
